A study of Rattus norvegicus with 50 samples.

Results

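Livers of brain-injured rats given anakinra and taken 24 h after the injury were compared with livers of sham rats: 5 arrays labelled as anakinra at 24 h and 5 labelled as sham, 10 of the 50 arrays in the series. Both groups were male Sprague Dawley rats of about 3 months, and rats had been assigned to groups at random. The anakinra rats carried a controlled cortical impact (CCI), a mechanical blow to the exposed brain that models traumatic brain injury, and received anakinra at 100 mg/kg. The sham rats are described as intact, and their time label reads control. The labels do not say whether they had surgery or received vehicle. The sources used here do not state when the doses were given or at which hour of the day livers were taken. Injury, drug, handling and collection time therefore cannot be told apart in the comparison with sham. The other injured rats of the series received saline vehicle or erythropoietin (EPO) at 2500 IU/kg, or anakinra with collection at 72 h or 7 days, again 5 rats each. Total RNA from snap-frozen punches of the median liver lobe was hybridised to Affymetrix Rat Gene ST arrays, 1 rat per array, and every value below is a log2 RMA value, so a difference of 1 is a doubling. One probe set stands for each gene symbol, the one of highest mean, and 14506 genes were tested.

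Anakinra is a recombinant form of the interleukin-1 receptor antagonist, the natural protein that occupies the type 1 interleukin-1 receptor without signalling. Interleukin-1 is released early after tissue injury, and in the liver it acts together with interleukin-6 to start the acute phase response, in which hepatocytes raise secretion of one set of plasma proteins and lower another. Inflammatory cytokines are also known to lower cytochromes P450 and drug transporters in hepatocytes. The series set out to ask how brain injury, EPO and anakinra affect hepatic drug-metabolising enzymes and transporters.

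The 10 arrays were alike in quality. Their medians lay between 6.69 and 6.74, their standard deviations between 2.09 and 2.13, and each array correlated with the rest of its group at 0.995 to 0.997. The mean level of 10 hepatocyte markers was 12.87 to 12.94 in the sham arrays and 12.90 to 13.00 in the anakinra arrays. Markers of neutrophils (5.81 to 5.92 in sham, 5.83 to 5.91 with anakinra) and of lymphocytes and NK cells (6.33 to 6.53 in sham, 6.35 to 6.53 with anakinra) covered nearly the same range in both groups. In whole tissue, fewer cells of a type and less RNA per cell cannot be told apart.

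Among 14506 genes, 28 passed the threshold between anakinra 24 h and sham (limma, Benjamini-Hochberg adjusted p under 0.05), 18 higher and 10 lower. The share called was 0.193% of all genes, with 0.124% higher and 0.0689% lower. The genes that rose included cholesterol synthesis enzymes (Lss, Hsd17b7), the interleukin-1 receptor Il1r1, genes of the acute phase response (Socs3, Fgl1, Kng1, Slc39a14), clock genes (Cry2, Tef) and the glucocorticoid-induced Fkbp5. The genes that fell included 3 of the cell cycle (Rrm2, Cdkn3, Plk1) and Cytip, a gene of haematopoietic cells. The changes were small, with 16 of the 28 reaching 1.5-fold and the largest at 1.34 log2 units. An unadjusted p under 0.05 was reached by 911 genes, or 6.28% of those tested, 470 higher and 441 lower. In 22 of the 28 genes the 5 anakinra arrays did not overlap the 5 sham arrays (13 higher, 9 lower). Over all genes the share was 2.28% (1.23% higher, 1.05% lower). The 28 were chosen by their difference on these same arrays, so their high rate of non-overlap adds no further support. The median difference over all genes was 0.01, and 52.1% of all genes had a difference above 0.

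**Figure D1:**
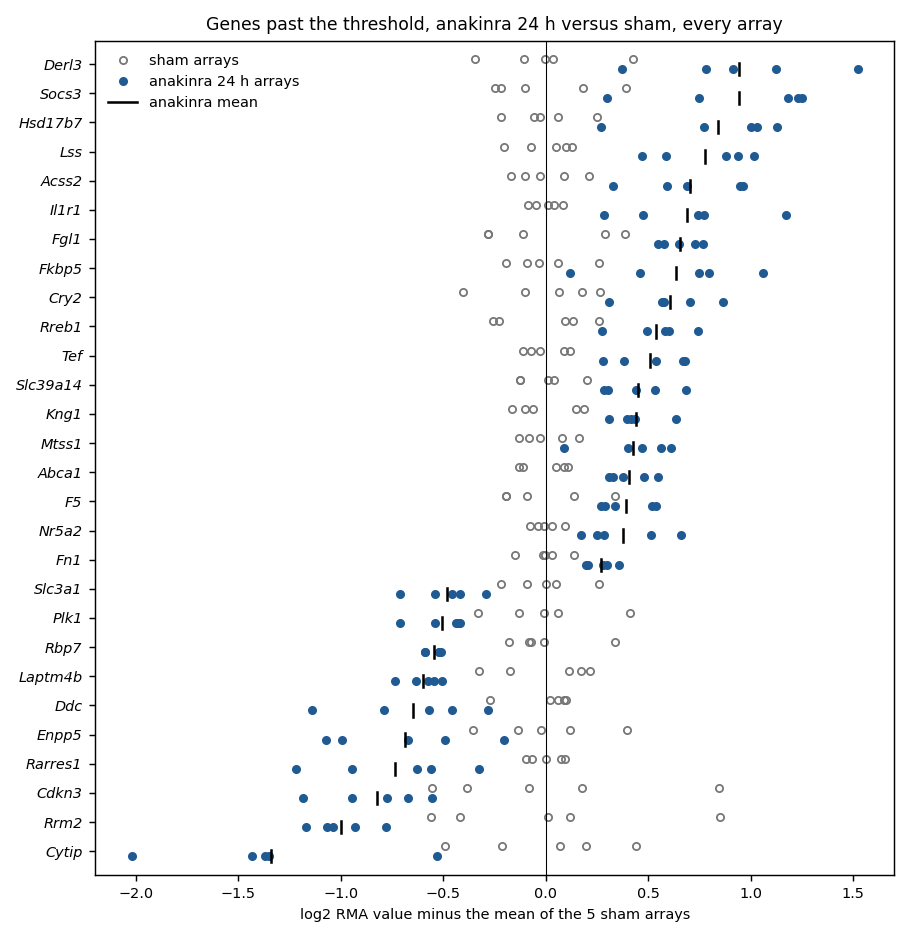
Each row is 1 of the 28 genes that passed the test between anakinra 24 h and sham, and the horizontal axis is the log2 RMA value of an array minus the mean of the 5 sham arrays. Open points are sham arrays, filled points anakinra arrays, and the short black line is the anakinra mean. Cytip lies farthest to the left at -1.34 and Derl3 farthest to the right at 0.95, and in 22 of the 28 genes the filled points do not overlap the open ones.

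The calls lay close to the threshold. The smallest adjusted p was 0.0109 (Lss). When 1 of the 10 arrays was left out at a time, the number of genes called ranged from 0, without anakinra array 4, to 36, without anakinra array 2, and no gene passed in all 10 of these fits. Without anakinra array 4 the smallest adjusted p was 0.0569, and 645 genes had an unadjusted p under 0.05. The direction of every one of the 28 genes stayed the same in each of the 10 fits. In the 22 genes without overlap, leaving out 1 array could not reverse it. All 28 were chosen by their difference on these same arrays, so the kept direction adds no support. The count was 14 without anakinra array 1, 21 without array 3 and 4 without array 5, and it was 16, 6, 9, 21 and 5 without sham arrays 1 to 5 in that order. A fit of the sham and anakinra 24 h arrays alone, without the other 8 groups, called 26 genes (12 higher, 14 lower), and 9 of the 28 were among them (Lss, Hsd17b7, Acss2, Abca1, Tef, Cytip, Rarres1, Rbp7 and Laptm4b). In that fit the other 19 had an adjusted p of 0.0504 to 0.142. With array weights, which give less weight to noisier arrays, the count was 280 (151 higher, 129 lower), and without the 5 arrays of the series with the narrowest spread of values, all of other groups, it was 45 (29 higher, 16 lower). All 28 genes passed in both of these fits. The fits in which a gene lost its call are given below with each group of genes.

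The cholesterol synthesis genes Lss and Hsd17b7 rose in the anakinra livers. The pathway turns acetyl-CoA into sterols under control of the transcription factor SREBP-2, which is held back when the cell's sterol content is high. Lss, the enzyme that closes squalene epoxide into lanosterol, read 9.84, 9.96, 10.31, 10.25 and 10.39 in anakinra arrays 1 to 5 and 9.50, 9.47, 9.42, 9.17 and 9.30 in sham arrays 1 to 5. All 5 anakinra arrays lay above all sham arrays. The difference was 0.78 (95% interval 0.50 to 1.05, 1.72-fold, limma adjusted p = 0.0109). Hsd17b7, a later enzyme that reduces the sterol 3-ketone, read 9.10, 9.86, 9.83, 9.60 and 9.96 with anakinra and 8.89, 9.08, 8.77, 8.61 and 8.80 in sham. Its groups did not overlap either, although anakinra array 1 was only just above the highest sham array. It rose by 0.84 (0.51 to 1.17, 1.79-fold, adjusted p = 0.0193).

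Of 24 measured genes in the list of cholesterol synthesis and sterol homeostasis, these 2 rose, none fell and 22 did not pass. The list's median difference was 0.38, against 0.01 over all genes, and 22 of 24 differences were above 0, against 52.1% of all genes. An unadjusted p under 0.05 was reached by 15 members, all of them higher. Over all genes it was reached by 6.28% in either direction, and by 470 of 14506 genes on the higher side. This list and those below were chosen with earlier results of these data known, so such an excess is not separate support. The mean level of the list was 9.60, 9.69, 9.55, 9.43 and 9.65 in sham arrays 1 to 5 and 9.67, 10.06, 10.13, 9.96 and 10.11 in anakinra arrays 1 to 5. Anakinra array 1 thus lay within the sham range, and the other 4 lay above it, in a mean that includes the 2 called genes. The rate-limiting step of sterol epoxidation, Sqle, was 1.04 higher (0.53 to 1.54, adjusted p = 0.0655) and did not pass, with array values of 8.62, 9.54, 9.66, 9.15 and 9.66 against 8.38, 8.40, 8.0, 7.99 and 8.69. Srebf2, which encodes SREBP-2, was 0.48 higher (adjusted p = 0.0733), the isopentenyl isomerase Idi1 1.03 (adjusted p = 0.0845) and the demethylase Cyp51 0.72 (adjusted p = 0.0992). Insig1 at 0.03 and Stard4 at -0.01, both known targets of the same regulator, did not pass (adjusted p = 0.999 each).

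Acss2 and Abca1 stand next to this pathway. Acss2 makes cytosolic acetyl-CoA from acetate, and its 5 anakinra values of 10.38, 10.64, 11.01, 11.00 and 10.74 were all above the sham values of 9.95, 10.26, 10.14, 10.02 and 9.88. It rose by 0.70 (0.38 to 1.02, 1.62-fold, adjusted p = 0.041). Abca1, the pump that loads cellular cholesterol onto apolipoprotein A-I, read 10.66, 10.49, 10.51, 10.73 and 10.56 with anakinra and 10.23, 10.07, 10.29, 10.27 and 10.05 in sham. It rose by 0.41 (0.24 to 0.57, 1.33-fold, adjusted p = 0.0193), again without overlap. Among 25 measured genes of fatty acid synthesis and desaturation, Acss2 rose, none fell, and the median difference was 0.10. The citrate importer Slc13a5 was 1.17 higher (adjusted p = 0.103) and the desaturase Scd 1.34 lower (-2.48 to -0.19, adjusted p = 0.638), and neither passed.

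Lss kept its call in 9 of the 10 fits with an array left out and lost it without anakinra array 4 (adjusted p = 0.0569). Hsd17b7 lost it without anakinra arrays 4 and 5 and without sham array 5 (highest adjusted p 0.0669), and Abca1 without anakinra arrays 4 and 5 and sham arrays 2 and 5 (highest 0.127). Acss2 passed without anakinra array 1 and without anakinra array 2 and in no other such fit (highest 0.221).

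The transcript of the type 1 interleukin-1 receptor, the protein that anakinra occupies, was higher in the anakinra livers than in sham livers. Its mean was above sham in injured livers given vehicle or EPO as well, with values given further below. Receptor protein was not measured. Il1r1 read 9.14, 8.95, 9.41, 9.84 and 9.44 in anakinra arrays 1 to 5 and 8.75, 8.58, 8.68, 8.62 and 8.71 in sham. The sham values were tightly spaced (8.67 ± 0.0654, SD, n = 5), the anakinra values spread more widely (9.36 ± 0.338, SD, n = 5), and the groups did not overlap. Il1r1 rose by 0.69 (0.37 to 1.01, 1.61-fold, adjusted p = 0.0472). Of the 10 fits with an array left out, it passed in the 1 without anakinra array 2 (highest adjusted p 0.302, without anakinra array 4).

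Of 24 measured genes of the interleukin-1 family and its signalling, Il1r1 alone passed, and the list's median difference was 0.01, the same as over all genes. Il1rn encodes the natural antagonist and measures the rat's own transcript, not the injected protein. It was 0.52 higher (0.17 to 0.87, adjusted p = 0.314), with array values of 9.35, 8.57, 9.14, 9.31 and 9.03 against 8.51, 8.43, 8.94, 8.37 and 8.54. Anakinra array 2 lay inside the sham range, and the other 4 lay above it. The co-receptor Il1rap differed by 0.23 (-0.00 to 0.45, adjusted p = 0.819) and the decoy receptor Il1r2 by -0.12 (-0.34 to 0.09, adjusted p = 0.999). The ligand Il1b differed by -0.20 (-0.48 to 0.07, adjusted p = 0.999) and Il18 by -0.31 (-0.59 to -0.02, adjusted p = 0.73). None of 24 measured NF-kB and interleukin-1 or TNF target genes passed, and their median was -0.00. The neutrophil chemoattractant Cxcl1 was 1.07 higher (adjusted p = 0.202), the largest difference in that list.

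Genes of the acute phase response rose in part. Socs3, the feedback inhibitor of interleukin-6 signalling, read 8.38, 7.50, 8.43, 8.45 and 7.95 with anakinra and 7.38, 6.95, 7.10, 6.98 and 7.59 in sham. Anakinra array 2 lay below the highest sham array, and the other 4 lay above all of sham. Socs3 rose by 0.94 (0.51 to 1.37, 1.92-fold, adjusted p = 0.041). Fgl1, a fibrinogen-like protein secreted by hepatocytes, read 12.70, 12.73, 12.80, 12.88 and 12.92 against 12.54, 11.87, 11.87, 12.04 and 12.44. The anakinra arrays were close together above a wider sham range, with a rise of 0.65 (0.39 to 0.92, 1.57-fold, adjusted p = 0.0244).

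Kng1 encodes kininogen, the precursor of kinins, and read 13.06, 13.15, 13.17, 13.19 and 13.39 with anakinra and 12.90, 12.59, 12.65, 12.69 and 12.94 in sham. It rose by 0.44 (0.24 to 0.64, 1.35-fold, adjusted p = 0.041) without overlap. A second Kng1 probe set, with a lower mean, differed by 0.78. Rat kininogen genes are near-identical copies, so the share of each copy in these values is uncertain. Slc39a14 encodes the zinc and iron importer ZIP14 and read 10.94, 10.71, 10.85, 11.09 and 10.69 against 10.45, 10.28, 10.42, 10.61 and 10.28. Its groups did not overlap, and it rose by 0.45 (0.26 to 0.64, 1.36-fold, adjusted p = 0.0282).

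These 4 were the members called among 44 measured positive acute phase proteins and interleukin-6 signalling genes, and none of the 44 fell past the threshold. The list's median difference was 0.12, and 37 of 44 differences were above 0, against 52.1% of all genes. At an unadjusted p under 0.05 there were 17 higher and 1 lower, against 6.28% of all genes in either direction. Its mean level was 11.12, 10.98, 11.09, 11.04 and 11.13 in the sham arrays and 11.29, 11.15, 11.27, 11.30 and 11.28 in the anakinra arrays, which did not overlap. The mean includes the 4 members called on these same arrays, so the lack of overlap is not separate support. Below the threshold stood Stat3, the transcription factor of interleukin-6 signalling, at 0.55 (0.27 to 0.83, adjusted p = 0.0845), the complement regulator C4bpa at 0.35 (adjusted p = 0.0845), Itih4 at 0.24 (adjusted p = 0.0956) and ceruloplasmin, Cp, at 0.28 (adjusted p = 0.12), each with all 5 anakinra arrays above sham.

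Several classical acute phase genes did not pass. The lipopolysaccharide-binding protein Lbp differed by 0.53 (0.13 to 0.94, adjusted p = 0.467), and A2m, alpha-2-macroglobulin, the best known rat acute phase protein, by 0.98 with a wide interval (-0.07 to 2.03, adjusted p = 0.859). The A2m values are spread by anakinra array 5, which read 10.94. Crp differed by 0.03 (-0.07 to 0.14) and Hamp, the iron hormone hepcidin, by 0.18 (-0.70 to 1.05). Among 17 measured negative acute phase proteins none passed, with a median of 0.02.

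Fgl1 lost its call without anakinra arrays 4 and 5 and without sham arrays 2 and 3 (highest adjusted p 0.113). Slc39a14 kept it without anakinra arrays 2, 3 and 5 and sham arrays 1 and 4 (highest 0.169). Kng1 kept it without anakinra array 2 and without sham array 1 (highest 0.221), and Socs3 in the single fit without anakinra array 2 (highest 0.221). In a fit of the anakinra 24 h and sham arrays alone, Fgl1, Kng1 and Socs3 had an adjusted p of 0.0523 each, Il1r1 0.0504 and Slc39a14 0.0621.

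**Figure D2:**
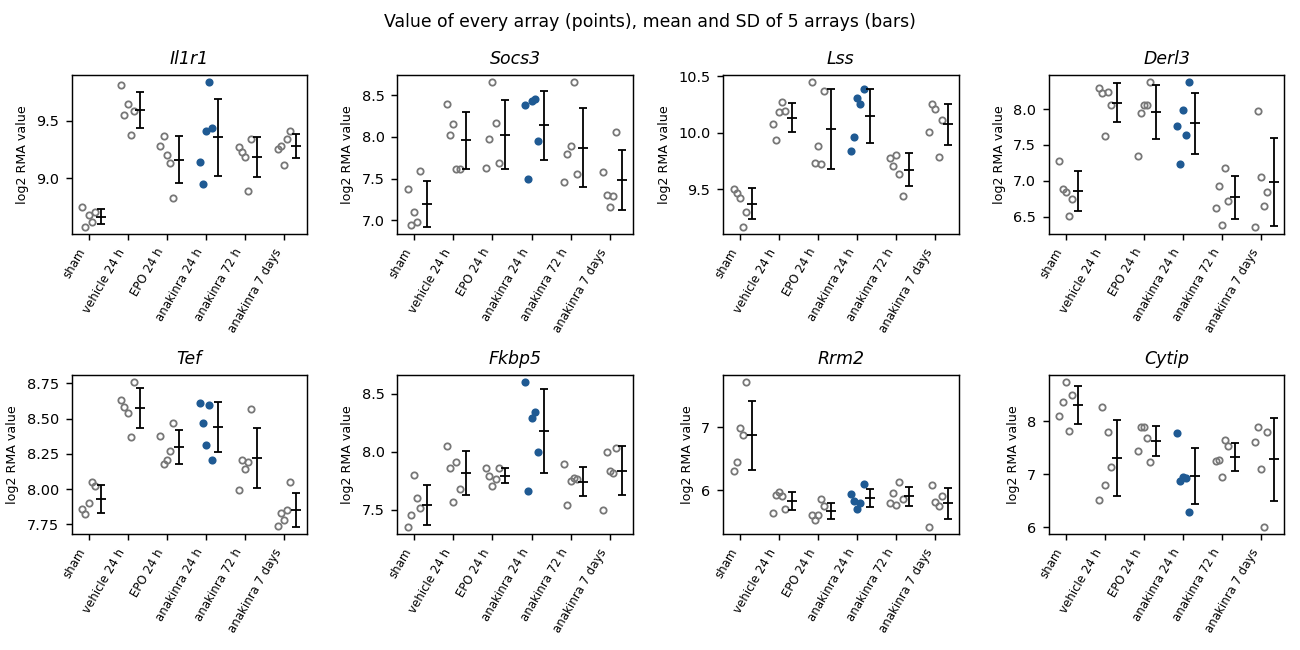
The panels show the log2 RMA value of every array for Il1r1, Socs3, Lss, Derl3, Tef, Fkbp5, Rrm2 and Cytip in sham, in the injured groups at 24 h given vehicle, EPO or anakinra, and in anakinra livers at 72 h and 7 days. Points are arrays, and the bars beside them are the mean and SD of 5 arrays. Tef is back near sham at 7 days (a difference of -0.08), whereas Rrm2 is still 1.08 below it.

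Fkbp5 encodes a co-chaperone of the glucocorticoid receptor and is a standard readout of glucocorticoid action. It read 8.60, 7.66, 8.29, 8.34 and 8.0 in anakinra arrays 1 to 5 and 7.35, 7.45, 7.80, 7.60 and 7.51 in sham. Anakinra array 2 was the lowest of its group and lay inside the sham range, and the other 4 were above it. Fkbp5 rose by 0.64 (0.38 to 0.89, 1.55-fold, adjusted p = 0.0193). It kept its call without anakinra arrays 2, 3 and 5 and sham arrays 3 and 4 (highest adjusted p of the 10 fits 0.106, without anakinra array 4). It was the only member called among 25 measured glucocorticoid response genes. The median difference of that list was -0.12, with 7 of 25 above 0, against 52.1% of all genes. Nr3c1, the receptor itself, was 0.47 lower (adjusted p = 0.227), and Angptl4 was 1.03 lower (adjusted p = 0.183).

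Clock genes Cry2 and Tef rose. The liver clock is a loop in which BMAL1 and CLOCK drive the Per and Cry repressors and output factors such as Dbp and Tef, so these transcripts swing over the day, and the comparison depends on the hour of collection. Cry2, a repressor of the loop, read 8.61, 8.34, 8.60, 8.74 and 8.90 with anakinra and 7.93, 8.21, 8.10, 8.30 and 7.63 in sham. The groups were separated by a narrow gap, and Cry2 rose by 0.60 (0.33 to 0.87, 1.52-fold, adjusted p = 0.041). Tef, a PAR-domain transcription factor of clock output that acts on detoxification genes, read 8.61, 8.47, 8.31, 8.60 and 8.21 against 7.86, 7.82, 7.90, 8.05 and 8.02. It rose by 0.51 (0.28 to 0.74, 1.42-fold, adjusted p = 0.041), with no overlap.

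Of 20 measured core clock and output genes, these 2 rose and none fell, against 0.124% higher and 0.0689% lower over all genes. The median was 0.11, against 0.01 over all genes, and 12 of 20 differences were above 0, against 52.1% of all genes. Per3 was 0.81 higher (adjusted p = 0.0733), Per2 0.60 (adjusted p = 0.181) and Dbp 1.04 (0.36 to 1.72, adjusted p = 0.288), while Bmal1 was 0.34 lower (adjusted p = 0.834) and Nr1d1 differed by 0.13 with an interval from -0.78 to 1.03. Cry2 kept its call without anakinra array 2 and without sham array 4 (highest adjusted p 0.208), and Tef without anakinra array 3 and without sham array 4 (highest 0.221).

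Promoter windows were taken from RefSeq (build GRCr8), from 250 bases before to 50 bases after each annotated start, and 22 of the 28 called genes had one. The Tef window is shown because Tef is a textbook target of the clock, whose activators bind the E-box CACGTG. That motif was present in 4 of the 22 windows (Abca1, Derl3, Rreb1 and Tef) and in 6.42% of all 33469 windows, both strands searched. The Tef window, on the plus strand of chr7:115206577-115206876, has it in capitals, starting 198 bases before the start:
Tef: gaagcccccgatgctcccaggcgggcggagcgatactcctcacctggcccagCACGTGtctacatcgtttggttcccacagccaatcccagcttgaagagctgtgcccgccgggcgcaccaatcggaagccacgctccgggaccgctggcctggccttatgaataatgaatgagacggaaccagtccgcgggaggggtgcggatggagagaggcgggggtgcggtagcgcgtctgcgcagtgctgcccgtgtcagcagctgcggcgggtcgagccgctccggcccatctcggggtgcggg

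Derl3 had the largest rise among the genes called against sham. Its product works in the removal of misfolded proteins from the endoplasmic reticulum. Derl3 read 7.77, 7.23, 7.98, 7.64 and 8.38 with anakinra and 7.28, 6.89, 6.85, 6.51 and 6.75 in sham. Anakinra array 2 was just under the highest sham array, and the rest lay above all of sham. The rise was 0.95 (0.51 to 1.38, 1.93-fold, adjusted p = 0.0435). Derl3 kept its call without anakinra array 2 and without sham array 1 (highest adjusted p 0.24). It had an adjusted p of 0.0522 when limma's variance estimate followed the mean level and was made robust to outlying genes. It was the single member called of 34 measured genes of endoplasmic reticulum stress and the amino acid response. The median of that list was 0.11, with 23 of 34 above 0, against 52.1% of all genes. The chaperones Calr at 0.18 (adjusted p = 0.46), Hyou1 at 0.42 (adjusted p = 0.512) and Hsp90b1 at 0.25 (adjusted p = 0.638) did not pass.

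The Derl3 window is shown because it holds a full endoplasmic reticulum stress response element on the minus strand relative to the gene. The element is CCAAT, 9 bases of any kind, then CCACG. Of the 22 called genes with a window, Derl3 alone had it, and it was present in 0.0657% of all windows. This element contains the shorter motif CCAAT, which alone occurred in a window of 12 of the 22 genes and in 37.5% of all windows. The window lies on the minus strand of chr20:12766416-12766715, with the element in capitals starting 154 bases before the start:
Derl3: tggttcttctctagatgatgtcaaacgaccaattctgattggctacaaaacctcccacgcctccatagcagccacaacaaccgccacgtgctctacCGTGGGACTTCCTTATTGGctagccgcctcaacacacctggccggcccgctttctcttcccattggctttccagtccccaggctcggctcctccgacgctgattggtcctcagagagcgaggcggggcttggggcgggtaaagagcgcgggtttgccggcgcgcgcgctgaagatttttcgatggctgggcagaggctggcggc

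Neither the sterol response motif TCACNCCAC (1.12% of all windows) nor, outside Ddc, the STAT motif TTCNNNGAA (8.87%) occurred in the windows of the 22 called genes. A match or its absence describes these letters in this window and not the binding of a factor.

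The other 5 genes that rose came from different pathways. Rreb1, a zinc finger transcription factor, read 9.54 ± 0.174 with anakinra and 9.01 ± 0.232 in sham (SD, n = 5 each), a rise of 0.54 (0.31 to 0.77, adjusted p = 0.0285). Mtss1, a membrane-bending scaffold of the actin cytoskeleton, was 10.20 ± 0.203 against 9.77 ± 0.117, a rise of 0.43 (0.25 to 0.61, adjusted p = 0.0285). F5, coagulation factor V, was 11.11 ± 0.126 against 10.72 ± 0.233, a rise of 0.39 (0.21 to 0.57, adjusted p = 0.0447), with 3 of 5 anakinra arrays above all of sham. The nuclear receptor Nr5a2 (LRH-1), which drives bile acid and cholesterol transport genes, was 10.22 ± 0.204 against 9.85 ± 0.0674, a rise of 0.37 (0.20 to 0.54, adjusted p = 0.041). Fn1, fibronectin, which hepatocytes also secrete into plasma, showed the smallest change of the 28, 13.02 ± 0.0659 against 12.75 ± 0.102, a rise of 0.27 (0.14 to 0.39, adjusted p = 0.0447). Rreb1 kept its call in 4 of the 10 fits with an array left out (without anakinra arrays 2 and 3 and sham arrays 1 and 4, highest adjusted p 0.137), Mtss1 in 3 (without anakinra array 2 and sham arrays 3 and 5, highest 0.129), F5 and Nr5a2 in 3 each (without anakinra arrays 2 and 3 and sham array 4, highest 0.241 and 0.232) and Fn1 in 2 (without anakinra array 2 and sham array 1, highest 0.241).

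The cell cycle genes Rrm2, Cdkn3 and Plk1 fell in the anakinra livers, and each lost its call without sham array 5. Adult liver cells divide rarely, so these transcripts are near the low end of the array's range. Rrm2, the small subunit of ribonucleotide reductase, supplies deoxynucleotides for DNA replication and read 5.94, 5.83, 5.70, 5.80 and 6.09 in anakinra arrays 1 to 5 and 6.31, 6.45, 6.99, 6.88 and 7.72 in sham. All anakinra arrays lay below all sham arrays, and sham array 5 was the highest by a wide margin. Rrm2 fell by 1.00 on the log2 scale (-1.37 to -0.62, 1.99-fold, adjusted p = 0.0189), and a second probe set differed by -0.82. Cdkn3, a phosphatase of cyclin-dependent kinases, read 4.75, 4.58, 4.85, 4.34 and 4.97 against 4.97, 5.14, 5.44, 5.70 and 6.37. The highest anakinra array and the lowest sham array read alike to 2 decimals, and sham array 5 was again the highest. Cdkn3 fell by 0.82 (-1.19 to -0.46, 1.77-fold, adjusted p = 0.0383). Plk1, a mitotic kinase, read 5.81, 5.80, 5.79, 5.69 and 5.52 against 5.90, 6.29, 6.22, 6.10 and 6.64, and fell by 0.51 (-0.73 to -0.28, 1.42-fold, adjusted p = 0.041).

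These were the 3 members called of 53 measured cell cycle genes, and none rose. The list's median was -0.11, and 12 of 53 differences were above 0, against 52.1% of all genes. At an unadjusted p under 0.05, 15 members were lower and none higher, against 6.28% of all genes in either direction. The mean level of the list was 6.43, 6.45, 6.55, 6.53 and 6.68 in sham arrays 1 to 5 and 6.34, 6.33, 6.34, 6.27 and 6.38 in the anakinra arrays, without overlap. This mean includes the 3 members called on the same arrays, so it is not separate support. Ccnb1, the mitotic cyclin B1, was 0.47 lower (adjusted p = 0.0603), the G1 cyclin Ccnd1 0.81 lower (-1.24 to -0.38, adjusted p = 0.0986) and the topoisomerase Top2a 0.55 lower (adjusted p = 0.245). Without sham array 5 the adjusted p was 0.0593 for Rrm2, 0.186 for Cdkn3 and 0.19 for Plk1. Rrm2 also lost its call without anakinra array 4 (0.0569), Cdkn3 kept it without anakinra array 3 and sham arrays 1 and 2 (highest adjusted p 0.218), and Plk1 without anakinra array 2 and sham arrays 1 and 4 (highest 0.198). In a fit of the 2 groups alone the adjusted p was 0.0652 for Rrm2, 0.128 for Cdkn3 and 0.0844 for Plk1.

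Most macrophage markers were lower as well, but without a call. Of 13 measured Kupffer cell and macrophage markers, 12 were lower in the anakinra livers, with a median of -0.23, and none passed. Their mean level was 9.05, 9.04, 9.08, 9.22 and 9.44 in sham arrays 1 to 5 and 9.22, 9.04, 8.82, 8.80 and 8.88 in anakinra arrays 1 to 5, so that sham array 5 was the highest here as well, and the groups overlapped. Anakinra array 1 lay above sham arrays 1 to 3 here, whereas its mean of the cell cycle list lay below all sham arrays. Cd5l differed by -0.47 (adjusted p = 0.826), Cd68 by -0.32 (adjusted p = 0.756) and Clec4f, which marks Kupffer cells, by -0.26 (adjusted p = 0.999). Against the same sham arrays, the median of the 13 markers was -0.26 in vehicle livers and -0.02 in EPO livers at 24 h. In these groups 0 and 5 of the 13 differences were above 0. The part of Kupffer cells and macrophages in the lower cell cycle genes was not tested.

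Plk1 and Cdkn3 are shown by their windows because promoters of such cell cycle genes are known to carry the cell cycle homology region, spelled TTTGAA. Through it such genes are held down in cells that do not divide. Whether the letters marked below are that element was not tested. The motif occurred in a window of 4 of the 22 genes (Cdkn3, Enpp5, Plk1 and Slc3a1) and in 18.3% of all windows, so it is a common string of letters. It is in capitals below, 6 bases after the start in Plk1 (plus strand, chr1:186147408-186147707) and read on the minus strand relative to the gene, starting 149 bases before the start, in the first of the 2 Cdkn3 windows (plus strand, chr15:22502136-22502435):
Plk1: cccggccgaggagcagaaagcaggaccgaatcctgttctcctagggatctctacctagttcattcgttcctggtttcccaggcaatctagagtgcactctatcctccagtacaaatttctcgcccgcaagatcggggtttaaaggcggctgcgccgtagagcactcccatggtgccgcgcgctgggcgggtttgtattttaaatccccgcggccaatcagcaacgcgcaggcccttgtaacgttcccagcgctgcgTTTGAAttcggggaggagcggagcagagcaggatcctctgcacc
Cdkn3: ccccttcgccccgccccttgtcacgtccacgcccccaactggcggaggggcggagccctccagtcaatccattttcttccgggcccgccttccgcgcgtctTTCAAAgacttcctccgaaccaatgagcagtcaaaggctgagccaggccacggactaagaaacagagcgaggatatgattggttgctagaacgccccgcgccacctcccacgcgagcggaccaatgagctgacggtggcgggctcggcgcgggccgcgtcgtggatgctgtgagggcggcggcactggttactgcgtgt

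The largest change among the genes called against sham was in Cytip, an adaptor of lymphocyte and dendritic cell adhesion that binds cytohesin. Cytip read 7.77, 6.87, 6.95, 6.93 and 6.28 in the anakinra arrays and 8.09, 8.37, 8.74, 7.81 and 8.50 in sham. Anakinra array 1 came close to the lowest sham array, and the others lay far lower. It fell by 1.34 (-1.94 to -0.74, 2.53-fold, adjusted p = 0.041). Cytip kept its call without anakinra array 1 and without sham array 4 (highest adjusted p 0.208) and missed it under the robust variance estimate (0.0522). None of the 18 measured lymphocyte and NK cell markers passed, with a median of 0.02 and a range from -0.24 to 0.16.

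The remaining 6 genes that fell came from different pathways. Rarres1, a retinoic acid responsive membrane protein, was 9.19 ± 0.348 with anakinra and 9.93 ± 0.0816 in sham (SD, n = 5 each), and fell by 0.74 (-1.04 to -0.44, 1.67-fold, adjusted p = 0.0193). Ddc, the decarboxylase that makes dopamine and serotonin, read 9.98, 10.49, 10.31, 10.20 and 9.63 against 10.79, 10.86, 10.87, 10.83 and 10.50, and fell by 0.65 (-0.92 to -0.38, 1.57-fold, adjusted p = 0.0277). In Ddc, sham array 5 stood apart below the other sham arrays and nearly met anakinra array 2. Laptm4b, a lysosomal membrane protein, was 8.34 ± 0.089 with anakinra and 8.95 ± 0.237 in sham (SD, n = 5 each) and fell by 0.60 (-0.88 to -0.33, adjusted p = 0.041). Rbp7, a retinoid-binding protein of endothelial and fat cells, was 5.91 ± 0.0405 against 6.45 ± 0.199 and fell by 0.55 (-0.77 to -0.32, adjusted p = 0.0277). Enpp5, a member of the ectonucleotide pyrophosphatase family, was 7.62 ± 0.356 against 8.30 ± 0.281 and fell by 0.69 (-1.0 to -0.37, adjusted p = 0.041), with 4 of 5 arrays below all of sham. Slc3a1, the heavy chain of a cystine and dibasic amino acid transporter, was 5.35 ± 0.154 against 5.83 ± 0.181 and fell by 0.48 (-0.69 to -0.28, adjusted p = 0.0285).

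Without anakinra array 4 none of these 6 passed. Rarres1 also lost its call without anakinra array 5 and sham arrays 2 and 5 (highest adjusted p 0.134), and Rbp7 without anakinra array 5 and sham arrays 3 and 5 (highest 0.132). Ddc kept its call without anakinra arrays 2 and 3 and sham arrays 1, 4 and 5 (highest 0.161), Laptm4b without anakinra array 2 and sham arrays 3 and 4 (highest 0.218), Enpp5 without anakinra arrays 2 and 3 and sham array 3 (highest 0.263) and Slc3a1 without anakinra arrays 2 and 3 and sham array 1 (highest 0.141).

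**Figure D3:**
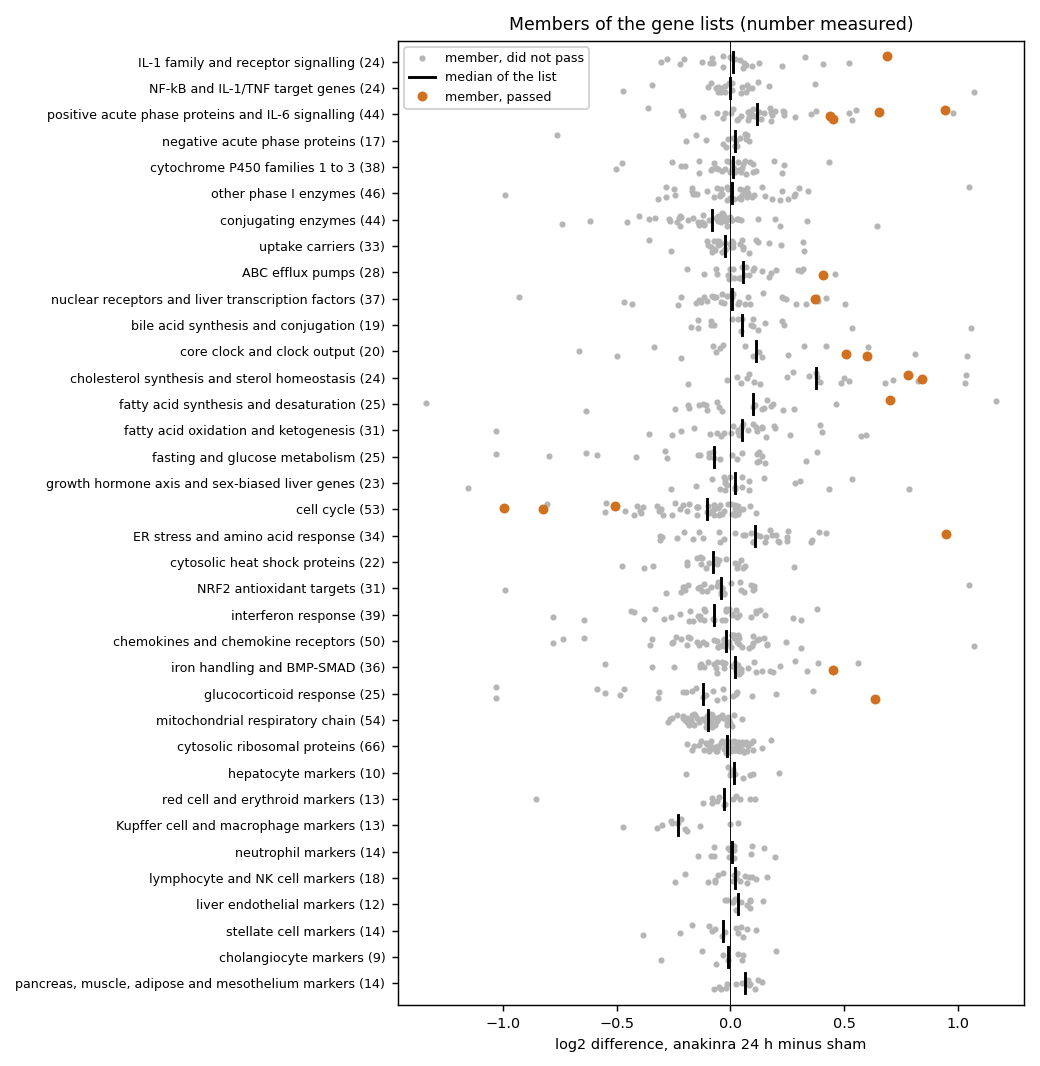
Each row is a gene list with the number of its members measured, and the horizontal axis is the log2 difference, anakinra 24 h minus sham. Small points are members that did not pass, larger points members that did, and the vertical line is the median of the list. The cholesterol list has the highest median, 0.38, and the P450 list has its median at 0.01 with no member called.

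Drug-metabolising enzymes and transporters, the stated subject of the series, gave few calls. None of 38 measured cytochromes P450 of families 1 to 3 passed, their median difference was 0.01, and the members lay between -0.50 and 0.43. The abundant liver forms read near the top of the values on these arrays (Cyp2c11 13.11 to 13.31, Cyp2e1 13.19 to 13.43 and Cyp3a2 12.92 to 13.12 over both groups), where bright probes can be compressed, so their intervals cover the spread between arrays and not a change hidden by compression. Cyp2c11, the male-specific P450 of rat liver, differed by -0.08 (-0.20 to 0.03). Cyp3a2, the major male CYP3A form, differed by -0.00 (-0.16 to 0.15), Cyp1a2, which oxidises caffeine, by 0.10 (-0.06 to 0.25) and Cyp2e1, which oxidises ethanol and paracetamol, by 0.05 (-0.11 to 0.21). Each of these 4 intervals lay within 0.25 log2 units of 0. Cyp2b1, the phenobarbital-inducible form, was measured far less precisely, at -0.50 (-1.39 to 0.38), and Cyp2b2 at 0.07 (-0.70 to 0.84). The 2 share most of their sequence and may share signal on the array. Cyp7a1, the rate-limiting enzyme of bile acid synthesis, was 1.06 higher (0.26 to 1.86, adjusted p = 0.46) and did not pass.

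Among 46 other phase I enzymes none passed and the median was 0.01. Por, the electron donor of all microsomal P450s, differed by 0.34 (0.00 to 0.68, adjusted p = 0.782). The quinone reductase Nqo1 was 1.05 higher (adjusted p = 0.233) and the aldo-keto reductase Akr7a3 0.99 lower (adjusted p = 0.245), each with 5 of 5 arrays beyond sham. Among 44 conjugating enzymes none passed, the median was -0.08, and 10 of 44 differences were above 0, against 52.1% of all genes. At an unadjusted p under 0.05 there were 8 lower and 2 higher in that list, against 6.28% of all genes in either direction. The glutathione transferase Gstm3 was 0.74 lower (adjusted p = 0.21), and the glucuronosyltransferase Ugt2b1 differed by -0.10 (-0.41 to 0.22). Against the same sham arrays, the median of the 44 conjugating enzymes was -0.18 in vehicle livers and -0.10 in EPO livers at 24 h. In these groups 11 and 10 of the 44 differences were above 0. There 3 and 2 members were called lower, against 0.455% and 0.152% of all genes.

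The lists of uptake carriers and ABC pumps held 1 called gene, Abca1, and the called transporters Slc39a14 and Slc3a1 are outside both. Of 33 uptake carriers none passed, with a median of -0.02. Slco1b2, the hepatocyte carrier of statins and bilirubin, differed by 0.05 (-0.12 to 0.23), and Slc10a1, which takes up bile acids, by 0.01 (-0.10 to 0.11). The prostaglandin carrier Slco2a1 was 0.32 higher with 5 of 5 arrays above sham (adjusted p = 0.121). Among 28 ABC efflux pumps Abca1 rose and the median was 0.05. The bile salt pump Abcb11 differed by -0.00 (-0.17 to 0.16), Abcc2, which exports conjugates into bile, by -0.19 (-0.41 to 0.02) and Abcb1a, a P-glycoprotein, by 0.20 (-0.16 to 0.56). Among 37 nuclear receptors and liver transcription factors, Nr5a2 rose, and the median was 0.01. The xenobiotic sensor Nr1i2 (PXR) was 0.42 higher (0.13 to 0.71, adjusted p = 0.342), Nr1i3 (CAR) differed by 0.29 (-0.17 to 0.75) and Hnf4a, a master factor of hepatocytes, by 0.08 (-0.11 to 0.28).

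The other lists gave no calls beyond those already named. Iron handling and BMP-SMAD (36 measured, median 0.02) held Slc39a14. No member passed among bile acid synthesis and conjugation (19 measured, median 0.05), fatty acid oxidation and ketogenesis (31, median 0.05), fasting and glucose metabolism (25, median -0.07), growth hormone axis genes (23, median 0.02), cytosolic heat shock proteins (22, median -0.08), NRF2 targets (31, median -0.04), interferon response (39, median -0.07) and chemokines with their receptors (50, median -0.02). The interferon-induced chemokine Cxcl9 was 0.78 lower with all 5 arrays below sham (adjusted p = 0.183). Of 54 measured subunits of the mitochondrial respiratory chain none passed, with a median of -0.10 and a range from -0.28 to 0.05. Of these differences, 3 of 54 were above 0, against 52.1% of all genes. Against the same sham arrays, the median of these subunits was -0.21 in vehicle livers and -0.09 in EPO livers at 24 h. In these groups 0 and 7 of the 54 differences were above 0. Of 66 cytosolic ribosomal proteins none passed between anakinra 24 h and sham, with a median of -0.01. No marker passed for red cells (13 measured, median -0.03), liver endothelium (12, median 0.03), stellate cells (14, median -0.03), cholangiocytes (9, median -0.01), neutrophils (14, median 0.01), hepatocytes (10, median 0.01) or neighbouring tissues such as pancreas and muscle (14, median 0.06).

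The effect of the drug itself is read against the injured livers given vehicle at the same time. No gene passed between anakinra 24 h and vehicle 24 h (limma, smallest adjusted p 0.901, a share called of 0%). An unadjusted p under 0.05 was reached by 616 genes, or 4.25%, 199 higher and 417 lower with anakinra. Vehicle array 3 stood apart from its group (median 6.89, SD 1.99, r with the rest of its group 0.982), and without it that number was 225. It was 1296 without vehicle array 1, 1120 without vehicle array 5 and 370 without anakinra array 1, and in each of these fits no gene passed after adjustment. The smallest unadjusted p belonged to Il21r, the interleukin-21 receptor (-0.31, -0.48 to -0.15), Cyria (0.51, 0.23 to 0.80), Med20 (-0.35, -0.54 to -0.16), Inha (-0.34, -0.53 to -0.15) and Gucy1a1, a subunit of the nitric oxide receptor (-0.22, -0.34 to -0.09), all at an adjusted p of 0.901. The median half-width of the unadjusted 95% intervals was 0.21 log2 units, and a gene passes the adjusted threshold only with a difference larger than its own half-width.

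For the 28 genes called against sham, the difference between anakinra and vehicle livers lay between -0.34 and 0.36. Its interval included 0 in all but Fkbp5 and Enpp5. Fkbp5 was 0.36 higher with anakinra than with vehicle (0.11 to 0.62, unadjusted p = 0.00605, adjusted p = 0.901) and Enpp5 0.33 lower (-0.64 to -0.02, unadjusted p = 0.0402, adjusted p = 0.901). Neither passed. Il1r1 was 0.24 lower with anakinra than with vehicle (-0.56 to 0.08), Lbp 0.40 lower (-0.80 to 0.01), Lss 0.02 higher (-0.26 to 0.29) and Rrm2 0.05 higher (-0.33 to 0.42). A difference that does not pass is not shown to be absent, and these intervals give the sizes still possible.

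The comparisons of the injured groups with sham share the 5 sham arrays, so their values are set side by side without a test of likeness. Against sham, 120 genes (0.827%) passed in vehicle livers and 63 (0.434%) in EPO livers at 24 h, compared with 28 in anakinra livers. Of the 28 genes, 17 also passed with vehicle and 13 with EPO. Il1r1 was 0.69 above sham with anakinra, 0.93 with vehicle and 0.49 with EPO. Lss was 0.78, 0.76 and 0.66 above sham in the same order, and Hsd17b7 0.84, 0.97 and 0.62. Derl3 stood at 0.95, 1.23 and 1.10, and Fgl1 at 0.65, 0.72 and 0.77. Fkbp5 was 0.64 above sham with anakinra and 0.27 and 0.25 with vehicle and EPO. Cytip was 1.34 below sham with anakinra, 1.00 below with vehicle and 0.67 below with EPO, and Rrm2 was at -1.0, -1.04 and -1.21.

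**Figure D4:**
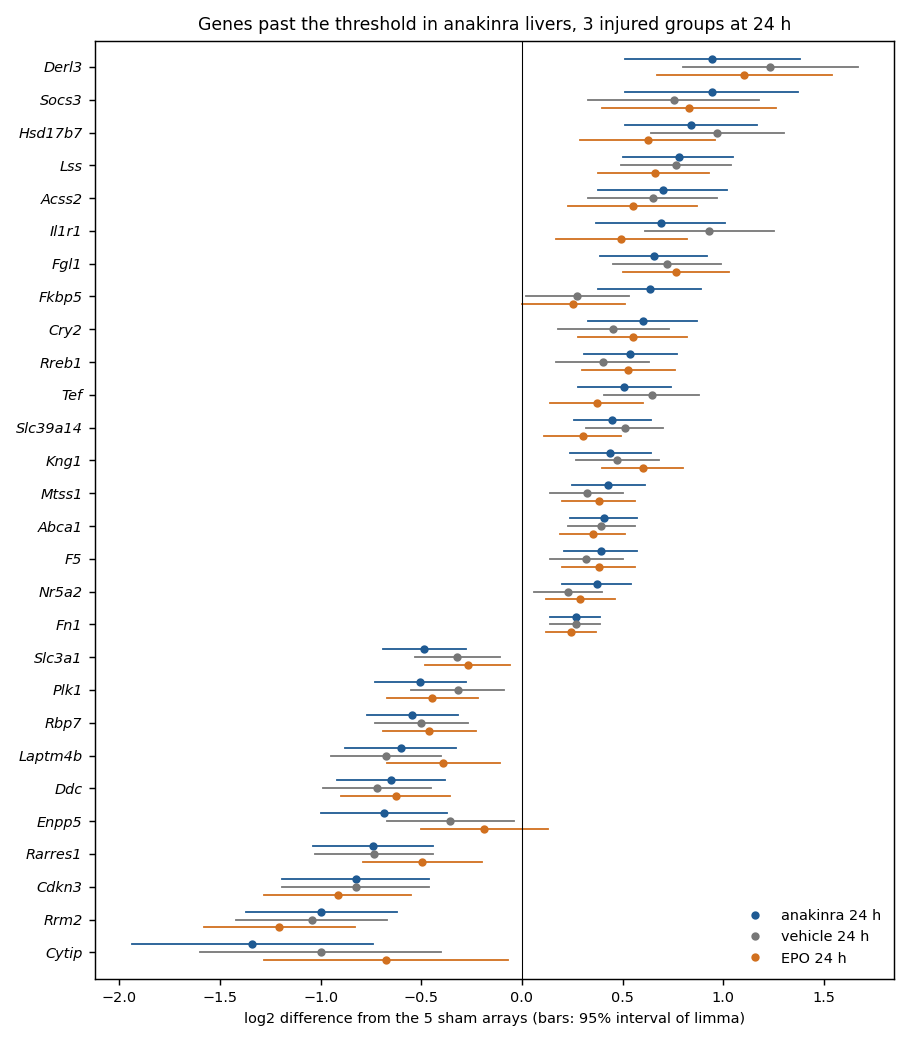
For the 28 genes called in anakinra livers at 24 h, points give the log2 difference from the 5 sham arrays in the anakinra, vehicle and EPO groups at 24 h, and bars the 95% interval of limma. The sham arrays are shared by all 3 groups. The anakinra and vehicle points lie within 0.36 of each other, the widest gap being that of Fkbp5.

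Against EPO livers at 24 h, 3 genes passed, all lower with anakinra (0.0207% of genes), and 245 genes (1.69%) had an unadjusted p under 0.05. Tacr1, the substance P receptor, read 6.49, 6.74, 6.79, 6.75 and 7.04 with anakinra and 7.53, 7.29, 7.43, 7.65 and 7.57 with EPO, a difference of -0.73 (-1.0 to -0.47). Csf2rb, the common beta chain of the receptors for GM-CSF, interleukin-3 and interleukin-5, read 7.40, 7.19, 7.37, 7.35 and 7.36 against 8.28, 7.81, 7.78, 8.05 and 7.98, a difference of -0.65 (-0.88 to -0.41). Fgf23, a phosphate-regulating hormone, read 5.30, 5.35, 5.36, 4.82 and 5.33 against 5.97, 5.65, 6.12, 6.05 and 6.24, a difference of -0.77 (-1.06 to -0.49). In each of these genes the groups did not overlap, and the adjusted p was 0.00978.

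Against sham the anakinra livers differed by 0.20 in Tacr1 (-0.06 to 0.47), by -0.03 in Csf2rb (-0.26 to 0.21) and by 0.02 in Fgf23 (-0.27 to 0.31), and none of these differences passed. Tacr1 lost its call without anakinra array 1 and without EPO arrays 1 and 5 (highest adjusted p 0.0972), Csf2rb without anakinra array 2 and EPO arrays 1 and 5 (highest 0.0973) and Fgf23 without anakinra array 4 and EPO arrays 1, 3 and 5 (highest 0.164). Hamp showed the widest gap between the groups, reading 13.08, 13.04, 12.98, 13.12 and 13.17 with anakinra and 11.77, 10.56, 9.24, 11.89 and 11.58 with EPO. The difference of 2.07 (1.19 to 2.95) did not pass (adjusted p = 0.0708).

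Within the anakinra-treated rats, no gene passed between 72 h and 24 h (limma, smallest adjusted p 0.298), and 572 genes (3.94%) had an unadjusted p under 0.05. Between 7 days and 24 h, 6 genes passed (0.0414%), 5 higher (0.0345%) and 1 lower (0.00689%) at 7 days, and 1145 genes (7.89%) had an unadjusted p under 0.05. Bmal2, a paralog of the clock activator BMAL1, read 6.76, 6.68, 6.64, 6.62 and 6.73 at 24 h, 7.32, 7.07, 7.16, 6.81 and 6.99 at 72 h and 7.30, 7.47, 7.86, 7.49 and 7.99 at 7 days. The 24 h and 7 day arrays did not overlap, and the difference was 0.93 (0.63 to 1.24, adjusted p = 0.00246). Its sham arrays read 7.05, 6.85, 7.11, 7.29 and 6.75, all below the 7 day arrays and all but sham array 5 above the 24 h arrays. Bmal2 passed in each of the 10 fits that left out 1 array of these groups (highest adjusted p 0.03).

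Tef was the gene that was lower at 7 days than at 24 h (-0.59, -0.82 to -0.36, adjusted p = 0.0272). It read 7.74, 7.83, 7.78, 7.85 and 8.05 at 7 days, below all 5 arrays at 24 h with arrays 1 and 3 under the lowest sham array and the other 3, to 2 decimals, within the sham range. The water channel Aqp8 (0.55, 0.34 to 0.76, adjusted p = 0.0211), the centrosomal Cep70 (0.62, 0.37 to 0.87, adjusted p = 0.0319), the protease Adamts9 (0.45, 0.26 to 0.63, adjusted p = 0.0412) and the brain-type glycogen phosphorylase Pygb (0.42, 0.25 to 0.60, adjusted p = 0.0415) were higher at 7 days. With 1 array left out, Cep70 kept its call in 4 of 10 fits, Aqp8 and Tef in 3 each (highest adjusted p 0.136 for all 3), and Adamts9 and Pygb in 1 each (highest 0.145 and 0.195). Cep70 lost it without 24 h arrays 3, 4 and 5 and 7 day arrays 1, 3 and 4, Aqp8 without 24 h arrays 2, 3 and 4 and 7 day arrays 1, 3, 4 and 5, and Tef without 24 h arrays 1, 2 and 4 and 7 day arrays 1, 2, 3 and 4. Adamts9 and Pygb passed when 24 h array 1 was left out and in no other such fit.

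Against sham, 16 genes passed at 72 h (0.11%) and 265 at 7 days (1.83%, with 0.931% higher and 0.896% lower) in the anakinra-treated rats, and of the 28 genes called at 24 h, 3 passed at 72 h and 10 at 7 days. These comparisons again share the sham arrays. In the order 24 h, 72 h and 7 days, Lss exceeded sham by 0.78, 0.30 and 0.70, and Hsd17b7 by 0.84, 0.31 and 0.58. Socs3 stood at 0.94, 0.67 and 0.28, Fgl1 at 0.65, 0.50 and 0.24, and Derl3 at 0.95, -0.09 and 0.13. Cry2 was 0.60, 0.72 and 0.81 above sham and Il1r1 0.69, 0.52 and 0.62. Rrm2 was at -1.0, -0.97 and -1.08, and Ddc at -0.65, -0.19 and -0.09. Of the 28 genes, Tef alone passed a test between the times.

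**Figure D5:**
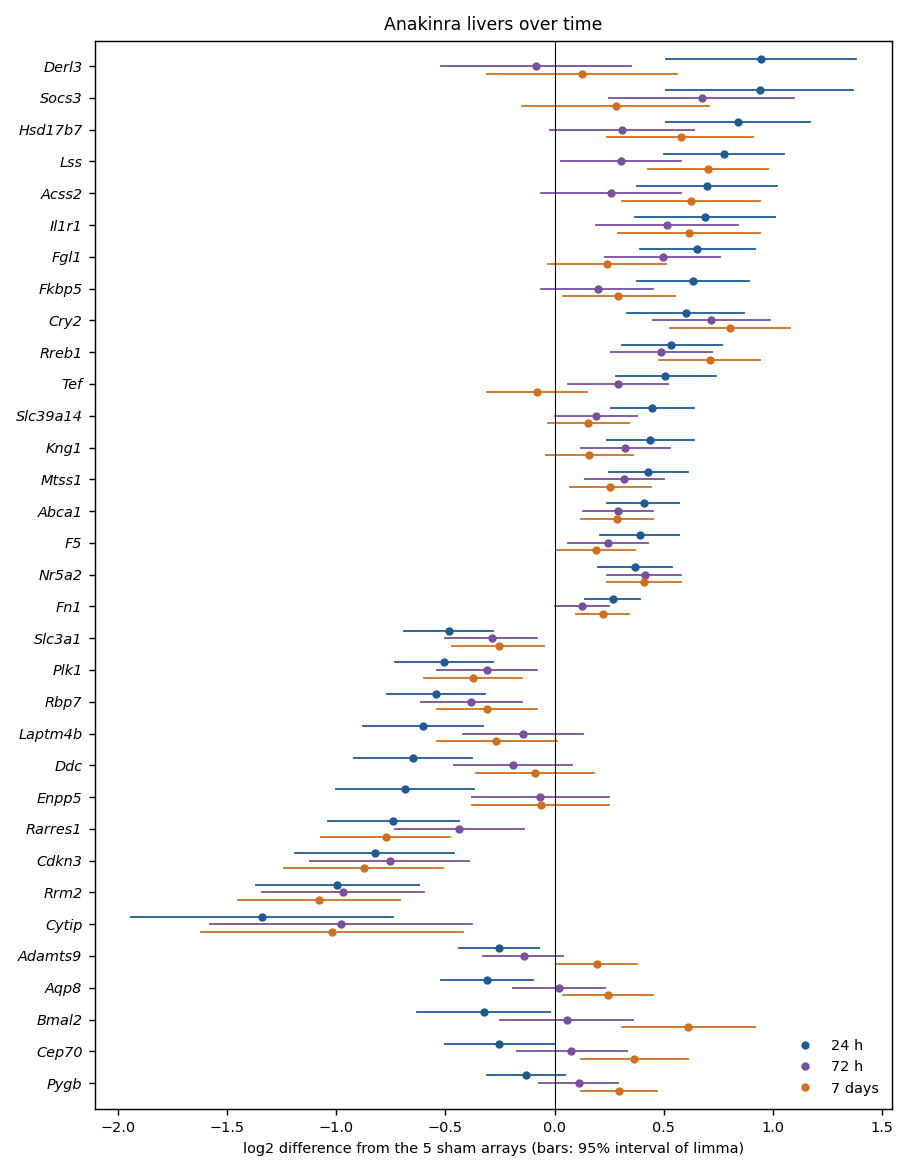
Points give the log2 difference from the 5 sham arrays in anakinra livers at 24 h, 72 h and 7 days, with the 95% interval of limma as bars, for the 28 genes called at 24 h and for the 5 other genes called between 7 days and 24 h. The sham arrays are shared by all times. Derl3 goes from 0.95 at 24 h to -0.09 at 72 h, while Rrm2 stays near -1.0 throughout.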

How the data were processed

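The deposited values were log2 expression per probe set, made by the authors with RMA in the oligo package, per the submitters' processing notes; their versions and any batch step are not stated there. RMA fits all arrays together and scales them to one distribution, so a change in total RNA cannot be seen, and values near the floor and near the top of the scale understate folds. Scanner intensities were not analysed here. Of 29214 probe sets, 15310 had 1 gene symbol, 323 several and 13581 none, and the brightest was kept for each of 14506 genes. The 13904 without a single symbol, tested apart, gave 0 calls in limma (514 at an unadjusted p under 0.05).

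One mean per group was fitted over all 50 arrays (10 groups of 5, 40 residual degrees of freedom) with limma 3.58.1 in R 4.3.3, and p-values were adjusted over all genes by Benjamini-Hochberg, two-sided, threshold 0.05. The 5 comparisons were each adjusted apart. The number of arrays limits the precision. Groups came from the labels. Genes named are those passing (up to 12 each way, and up to 3 per list), 46 fixed genes (41 measured) and, for the other comparisons, up to 5 each way or the 5 of smallest p; others named, among them the rest of the 28 called genes, were chosen after their values were seen. The 36 lists held 1029 measured of 1182 entries (87.1%). Genes, lists and members were chosen with earlier results of these data known. The fit was tested on simulated data. Alternatives were the 2 groups alone, array weights, a trended and robust variance, a filter on dim genes (mean under 5), the mean of probes, median centring, leaving out 5 narrow arrays, a replicate block, and each array left out. Sequences are from RefSeq (GRCr8). Unmatched list genes were not analysed here.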

Additional observations from a re-analysis of the deposited data

Results flagged for a closer look

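In 7 of 182 groups of 5 arrays examined, 1 array stood apart from the other 4 by more than Dixon's 95% critical value of 0.71; chance gives about 1 in 20. Ddc read 10.50 in sham array 5 and 10.79 to 10.87 in the other sham arrays, so that the fall of Ddc with anakinra is larger against those 4. Csf2rb read 7.19 in anakinra array 2 (7.35 to 7.40 in the others) and 7.21 in sham array 4 (7.38 to 7.43). Fgf23 read 4.82 in anakinra array 4 against 5.30 to 5.36, Il1r2 5.82 in anakinra array 3 against 5.50 to 5.56, Gucy1a1 7.58 in anakinra array 1 against 7.40 to 7.45, and Abcc2 12.35 in sham array 3 against 12.07 to 12.14.

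The 6 genes called by limma between 7 days and 24 h in anakinra livers are set here against sham at each time. The same sham arrays serve both times, so sham drops out of the change. The test is the comparison of the 2 times already given, without a sham group of each time. Bmal2 went from -0.32 to 0.61 (a change of 0.93, adjusted p = 0.00246) and Tef from 0.51 to -0.08 (-0.59, adjusted p = 0.0272). Aqp8 went from -0.31 to 0.24 (0.55, adjusted p = 0.0211) and Cep70 from -0.25 to 0.36 (0.62, adjusted p = 0.0319). Adamts9 went from -0.25 to 0.19 (0.45, adjusted p = 0.0412) and Pygb from -0.13 to 0.29 (0.42, adjusted p = 0.0415). Of these, Bmal2 passed with each of the 10 arrays left out in turn; the others did not.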

How the results depend on the processing

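None of the 28 genes called against sham reversed under any alternative run. Named genes with a difference near 0 could change sign, as Nr1d1 did without anakinra array 4. The count of 28 genes against sham was 22 to 29 under 6 of 8 settings, 280 with array weights, 45 without the 5 narrowest arrays and 0 to 36 with 1 array left out. Of the 28 genes, 7 passed under all 8 settings (Lss, Hsd17b7, Abca1, Rarres1, Rbp7, Laptm4b and Tef), and none passed with every array left out in turn. Against vehicle the count was 0 under every setting. Against EPO the count of 3 became 7 in a fit of the 2 groups alone and 12 with array weights, and 0 to 4 with 1 array left out (0 without EPO array 1 and without EPO array 5). Between 72 h and 24 h it was 35 with array weights and 0 otherwise. Between 7 days and 24 h the count of 6 became 12 in a fit of the 2 groups alone, 111 with array weights, 19 without the 5 narrowest arrays and 1 to 8 with 1 array left out. The causes were not tested. Replicate numbers are shared by all groups, but same-numbered sham and anakinra arrays deviated together with r over 0.1 in 2 of 5 pairs (-0.06 to 0.18), so the numbers were not taken to pair rats. With the replicate number as a block, 22 genes passed (13 higher, 9 lower), and Acss2 (0.0515), F5 (0.0515), Derl3 (0.0521), Enpp5 (0.0521), Il1r1 (0.0554) and Fn1 (0.0554) did not.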
